A study of Mus musculus with 3 samples.

Results

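The genes described here are 40 genes of glycolysis and of the response to low oxygen, chosen by name, and all 40 were found among the 25791 gene symbols of an expression table of 3 mouse melanoma cell lines. The series concerns blockade of the T cell checkpoint receptor PD-1 in melanoma, and its cell lines here are YUMM1.1, YUMM2.1 and YUMM1.7. YUMM lines were grown out of melanomas of engineered mice in which melanocytes were given an activated Braf gene. The labels themselves give no genotype, treatment, passage or oxygen level for any of the 3 groups, and each group is 1 library of total RNA from 1 line, without replicates. Expression was given as FPKM, fragment counts scaled by transcript length and by library size, so levels of different genes can be compared. No test was possible, and whether a difference exceeds the spread between cultures of a line is unknown.

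Glycolysis turns glucose into pyruvate in the cytosol, and lactate dehydrogenase turns pyruvate into lactate, which leaves the cell through monocarboxylate transporters. Many of the enzymes exist as isozymes encoded by separate genes. When oxygen is scarce, prolyl hydroxylases no longer mark the HIF alpha subunits for destruction through VHL, and HIF then raises genes of glucose uptake, glycolysis, acid handling, vessel growth and collagen modification. Melanoma cells are known for high glycolysis even when oxygen is present, and Braf signaling and HIF are both known to promote it.

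Of the 40 genes, 35 had at least 1 FPKM in at least 1 line and passed the filter on low values, as did 11741 symbols of the whole table. Slc2a3 passed only through YUMM2.1 and Egln3 only through YUMM1.7, so these had to differ. The 5 that did not pass were Slc16a3, Aldoc, Epas1, Car9 and Car12. From the spacing of low values, the implied depth was about 69 M fragments for YUMM1.1, 87.3 M for YUMM2.1 and 46.1 M for YUMM1.7. These are the library sizes used in the deposited FPKM, which may not be the numbers of fragments sequenced. Rpl41, a ribosomal protein gene abundant in the other lines, had a 0 in YUMM1.7, and a 0 in the table is therefore not read as absence. Of the melanocyte lineage genes that were checked, Sox10 stood at 107 FPKM in YUMM1.1, 44.3 in YUMM2.1 and 0.00821 in YUMM1.7, and the summed level of the 8 genes was 108, 52.1 and 1.0 FPKM. In YUMM1.1 and YUMM2.1 that sum was mostly Sox10. Mitf, at 0.188, 1.23 and 0.617 FPKM, and Mlana, at 0.159, 6.18 and 0, did not follow its order. Tyr, Tyrp1, Dct, Pmel and Slc45a2 stayed below 1 FPKM in every line. The leukocyte markers summed to 5.35, 30.1 and 0.735 FPKM, with Ptprc listed at 0 in YUMM1.1 and YUMM1.7 and at 0.00217 FPKM in YUMM2.1. The endothelial, erythroid and muscle marker lists each summed to less than 0.4 FPKM in every line.

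By a difference of at least 1 in log2(FPKM + 1), which is 2-fold on that scale, 21 of the 40 genes differed in none of the 3 comparisons and 19 differed in at least 1. The 21 include the 5 that did not pass the filter. The share of all expressed symbols that differed in at least 1 comparison was not computed, so 19 cannot be called many or few. Of the 35 genes that passed the filter, 7 (20%) were higher and 6 (17.1%) lower in YUMM1.7 against YUMM1.1. Of all expressed symbols, 13.5% were higher and 9.91% lower. In YUMM2.1 against YUMM1.1, 6 genes (17.1%) were higher and 1 (2.86%) lower, beside 6.21% and 7.64% of all expressed symbols. In YUMM2.1 against YUMM1.7, 10 genes (28.6%) were higher and 4 (11.4%) lower, beside 11.7% and 19.5%. The median difference of the 35 genes that passed the filter was -0.04, -0.07 and -0.08 in the same order, and that of all expressed symbols was 0.02, -0.05 and -0.02. As deposited, the median of the set thus lay within 0.1 of that of all expressed symbols. Centred on classes of transcript length, where the median of all symbols is 0, it was -0.09, 0.15 and 0.60. The genes past the rule were single isozymes, transporters, flux regulators and hypoxia response genes. Rescaling the libraries to a common FPKM sum changed these splits to 3 higher and 13 lower, 11 and 0, and 23 and 1, in the same order of comparisons. The shares of all expressed symbols then were 5.56% and 27.0%, 17.4% and 2.73%, and 54.1% and 4.29%. Under that scaling Slc2a1, Pfkp, Bnip3 and Ankrd37 no longer passed the rule in YUMM1.7 against YUMM1.1, nor did Slc2a1, Eno1 and Ankrd37 in YUMM2.1 against YUMM1.7. The 3 comparisons share libraries and are not independent of each other.

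**Figure D1:**
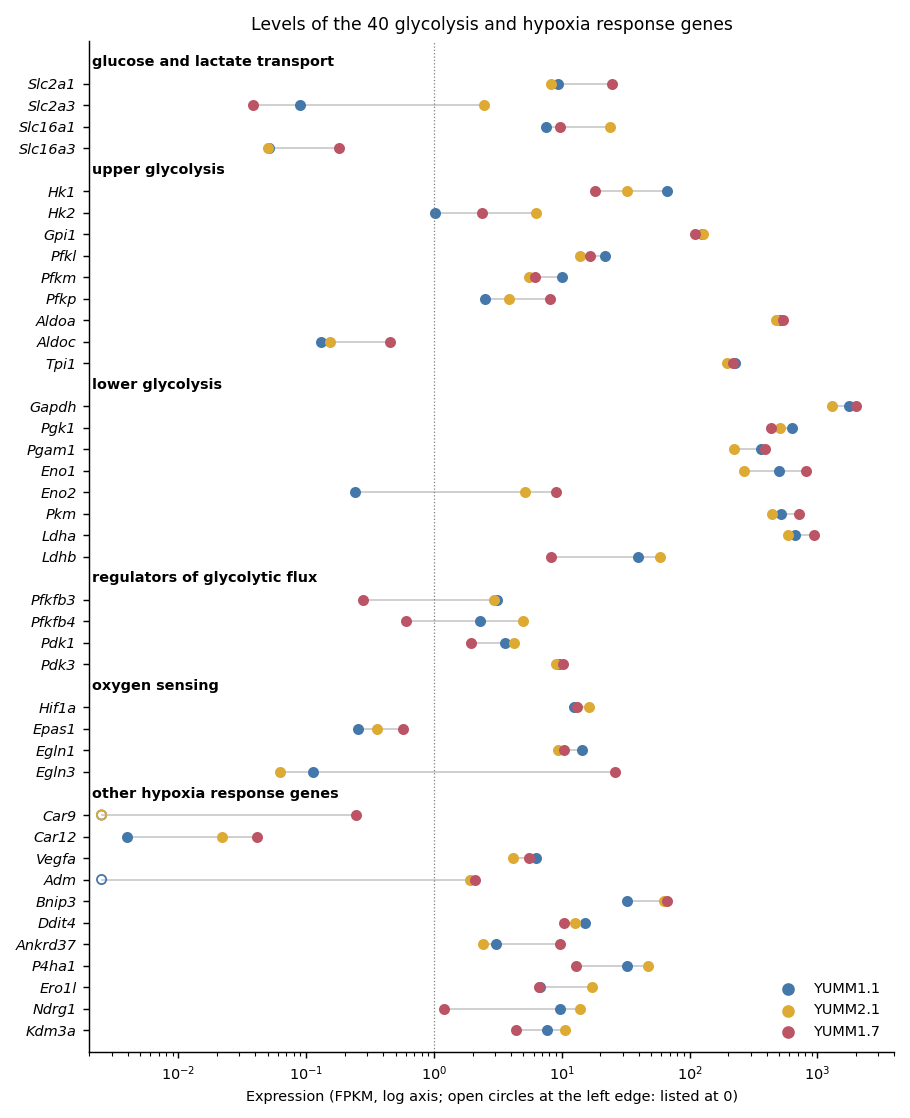
Each point is the FPKM of 1 gene in 1 library on a log axis, with genes ordered by role and lines told apart by color; open circles at the left edge are values listed at 0, and the dotted line marks 1 FPKM. The abundant enzymes Gpi1, Aldoa, Tpi1, Gapdh, Pgk1, Pgam1, Pkm and Ldha lie within 2-fold in the 3 lines, while Eno1 spans 265 to 808 FPKM. Egln3 spans 0.0619 to 26.3 FPKM and Eno2 0.241 to 9.07 FPKM.

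Glucose enters the cell through the facilitative transporters GLUT1, encoded by Slc2a1, and GLUT3, encoded by Slc2a3. Slc2a1 stood at 9.28 FPKM in YUMM1.1, 8.17 in YUMM2.1 and 24.7 in YUMM1.7. YUMM1.7 was therefore 2.66-fold above YUMM1.1 and 3.02-fold above YUMM2.1, which lay close to each other. Slc2a3 stood at 0.0891, 2.45 and 0.0384 FPKM in the same order of lines. It was detected above 1 FPKM in YUMM2.1 alone, 27.4-fold above YUMM1.1 and 63.6-fold above YUMM1.7. The YUMM1.7 value rests on about 11.1 fragments (exact 95% Poisson interval 5.49 to 19.7, counting error only).

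Lactate and pyruvate cross the membrane through MCT1, encoded by Slc16a1, and MCT4, encoded by Slc16a3, which is known as the hypoxia-inducible exporter. Slc16a1 stood at 7.48 FPKM in YUMM1.1, 23.7 in YUMM2.1 and 9.67 in YUMM1.7. For Slc16a1, YUMM2.1 was 3.17-fold above YUMM1.1 and 2.45-fold above YUMM1.7. Slc16a3 stayed below the filter in every line, at 0.0511, 0.0500 and 0.179 FPKM. Bsg, which encodes the chaperone that carries both transporters to the surface, was abundant throughout at 702, 546 and 602 FPKM.

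Hexokinase traps glucose in the cell as glucose 6-phosphate. Hk1, the widely expressed form, stood at 66.6 FPKM in YUMM1.1, 32.3 in YUMM2.1 and 18.1 in YUMM1.7. The order was YUMM1.1 over YUMM2.1 over YUMM1.7, with YUMM1.1 2.06-fold above YUMM2.1 and 3.68-fold above YUMM1.7. The difference between YUMM1.1 and YUMM2.1 sat at the limit of the 2-fold rule, at -1.02 on the log2 scale, and missed it with a common sum, a common upper quartile and the median ratio. Hk2, the inducible form common in tumors, stood at 1.02, 6.29 and 2.39 FPKM. YUMM2.1 had the highest Hk2, 6.14-fold above YUMM1.1 and 2.63-fold above YUMM1.7. Of the FPKM of both genes in a line, Hk1 held 98.5% in YUMM1.1, 83.7% in YUMM2.1 and 88.3% in YUMM1.7. Such a share is taken within a library and does not depend on how the libraries were scaled to each other. Hk1 thus was the main hexokinase transcript in each line, while the summed level of the pair was 67.6, 38.6 and 20.5 FPKM.

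Phosphofructokinase commits sugar phosphate to glycolysis and is built from liver, muscle and platelet type subunits. Pfkl, the liver type, stood at 21.7, 13.8 and 16.6 FPKM in YUMM1.1, YUMM2.1 and YUMM1.7, and Pfkm, the muscle type, at 9.98, 5.55 and 6.21 FPKM. Neither differed 2-fold between any pair of lines. Pfkp, the platelet type, stood at 2.50, 3.88 and 8.06 FPKM, 3.23-fold above YUMM1.1 in YUMM1.7. Its share of the 3 subunit genes was 7.30% in YUMM1.1, 16.7% in YUMM2.1 and 26.1% in YUMM1.7, against 63.5%, 59.3% and 53.8% for Pfkl. Exons of Pfkp overlap those of Pitrm1 on the opposite strand, which stood at 15.1, 12.0 and 14.6 FPKM, and whether the libraries kept strand was not given.

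The enzymes without a rival isozyme were abundant and close between lines. Gpi1, which turns glucose 6-phosphate into fructose 6-phosphate, stood at 125, 126 and 111 FPKM in YUMM1.1, YUMM2.1 and YUMM1.7. Aldoa, the main aldolase, stood at 509, 472 and 540.4 FPKM, and Tpi1, which interconverts the triose phosphates that aldolase makes, at 225, 196 and 218 FPKM. The levels of these 3 genes stayed within a ratio of 1.15 between any pair of lines. Aldoc, the brain type aldolase, lay under the filter in every line at 0.130, 0.153 and 0.453 FPKM, so Aldoa held at least 99.9% of the aldolase FPKM.

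Further down the pathway, Gapdh, which oxidizes the triose phosphate, was the most abundant of the 40 genes in each line, at 1756 FPKM in YUMM1.1, 1288 in YUMM2.1 and 1986 in YUMM1.7. Pgk1, which makes the first ATP of the pathway, stood at 637, 508 and 434 FPKM. Pgam1, the phosphoglycerate mutase, stood at 363, 223 and 389 FPKM. These 3 genes differed by less than 2-fold, with YUMM2.1 lowest for Gapdh and Pgam1 and YUMM1.7 lowest for Pgk1. The pyruvate kinase gene Pkm, listed under its older symbol Pkm2 as 1 value for both of its splice forms, stood at 522, 444 and 722 FPKM. Ldha, which encodes the lactate dehydrogenase subunit that favors lactate, stood at 672, 588 and 944 FPKM. For both, YUMM1.7 was highest and YUMM2.1 lowest, within 2-fold.

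Eno1, the main enolase, was the exception among these abundant enzymes. Its level was 497 FPKM in YUMM1.1, 265 in YUMM2.1 and 808 in YUMM1.7, which is 3.05-fold between YUMM1.7 and YUMM2.1. The symbol Gm5506, named Eno1b by RefSeq, is an enolase copy that can share reads with Eno1, and it stood at 22.4, 11.7 and 37.1 FPKM, or 4.31%, 4.24% and 4.39% of the pair. Read sharing with processed pseudogenes is likewise possible for Gapdh, Pgk1, Pgam1, Tpi1, Aldoa and Ldha, whose values are uncertain to that extent.

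Together, 9 abundant enzymes (Gpi1, Aldoa, Tpi1, Gapdh, Pgk1, Pgam1, Eno1, Pkm and Ldha) summed to 5305 FPKM in YUMM1.1, 4111 in YUMM2.1 and 6151 in YUMM1.7. In rank among the 11741 expressed symbols they ran from 111 to 848 in YUMM1.1, from 107 to 677 in YUMM2.1 and from 142 to 1119 in YUMM1.7. They held 0.509%, 0.593% and 0.337% of all FPKM, so the order of the lines in this share was the reverse of that in the sum. Short transcripts read higher in YUMM1.7 in general, and 7 of the 9 fall into the shortest 2 of 5 equal classes of transcript length. The median difference of the shortest class was 0.47 in YUMM1.7 against YUMM1.1, -0.37 in YUMM2.1 against YUMM1.1 and -0.83 in YUMM2.1 against YUMM1.7, on the log2(FPKM + 1) scale. In the last comparison the 9 enzymes had a median of -0.62. Centred on the length classes, that median turned from -0.62 to 0.15, with Eno1 still past the rule as lower and Pgk1 past it as higher. The medians of the 9 in YUMM1.7 and YUMM2.1 against YUMM1.1 went from 0.10 to -0.09 and from -0.23 to 0.05. The order of the lines in these enzymes thus changed with that choice.

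The minor isozymes of lower glycolysis differed more. Eno2, the neuronal enolase, stood at 0.241 FPKM in YUMM1.1, 5.11 in YUMM2.1 and 9.07 in YUMM1.7. It was 37.6-fold higher in YUMM1.7 and 21.2-fold higher in YUMM2.1 than in YUMM1.1, and it made up 1.89% of the Eno1 and Eno2 sum at most. Eno3, the muscle enolase and no member of the set, had the same order of lines at 0.619, 4.01 and 16.3 FPKM. Ldhb, which encodes the subunit that favors pyruvate, stood at 39.3, 59.0 and 8.16 FPKM. YUMM1.7 was 4.81-fold below YUMM1.1 and 7.23-fold below YUMM2.1, and Ldhb held 5.52%, 9.11% and 0.857% of the lactate dehydrogenase FPKM in YUMM1.1, YUMM2.1 and YUMM1.7.

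**Figure D2:**
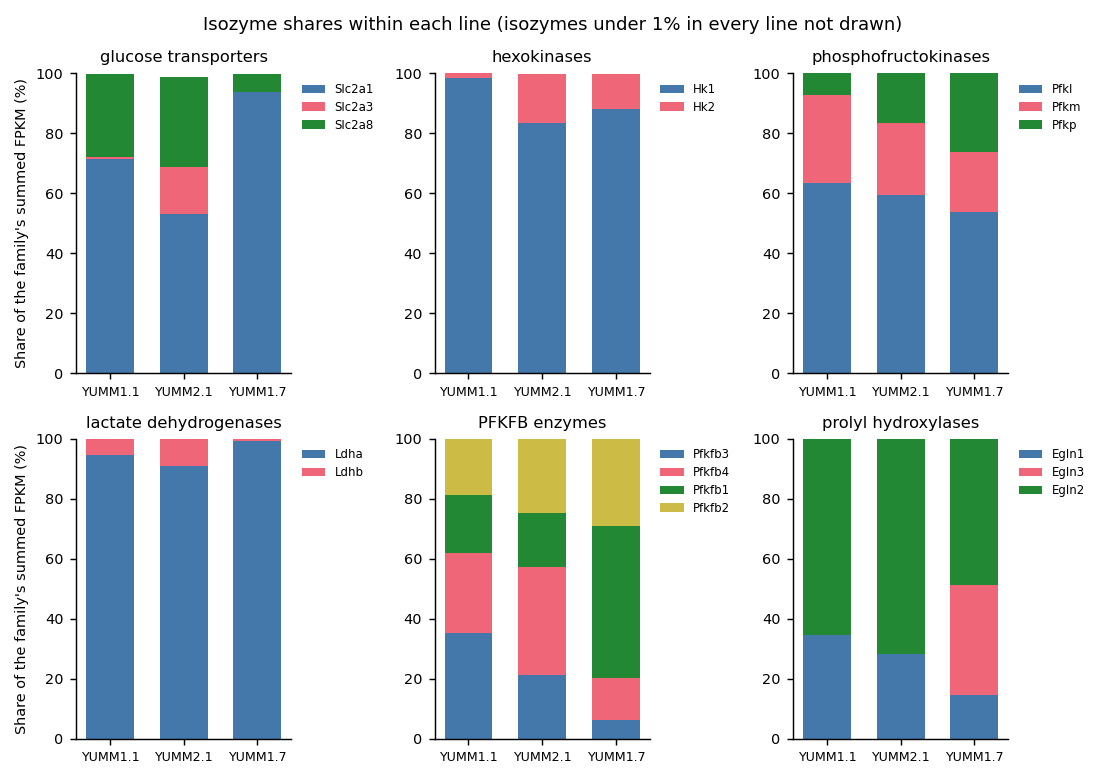
Stacked bars give the share of each isozyme in the summed FPKM of its family within each line, in percent, with isozymes outside the set of 40 genes included and those under 1% in every line not drawn. Egln3 fills 36.9% of the prolyl hydroxylase bar in YUMM1.7 and under 1% in the other lines, and Slc2a3 fills 15.9% of the glucose transporter bar in YUMM2.1.

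Flux into and out of the pathway is set by the PFKFB enzymes, which make or remove the activator of phosphofructokinase, and by the pyruvate dehydrogenase kinases, which close the entry of pyruvate into mitochondria. Pfkfb3, the form with the strongest kinase activity, stood at 3.08 FPKM in YUMM1.1, 2.92 in YUMM2.1 and 0.278 in YUMM1.7. Pfkfb4 stood at 2.31, 4.97 and 0.607 FPKM. Both were lowest in YUMM1.7, by 11.1-fold and 3.80-fold against YUMM1.1 and by 10.5-fold and 8.19-fold against YUMM2.1. Pfkfb2 was also lowest in YUMM1.7, at 1.63, 3.43 and 1.28 FPKM, but within the 2-fold rule, and Pfkfb1, at 1.697, 2.45 and 2.23 FPKM, was lowest in YUMM1.1. Pfkfb3 therefore held 35.4% of the whole family in YUMM1.1 and 6.32% in YUMM1.7. Pdk1, the kinase best known as a HIF target, stood at 3.60, 4.19 and 1.94 FPKM, and Pdk3 at 9.48, 8.998 and 10.2 FPKM. Neither kinase gene reached the 2-fold rule in any comparison.

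The oxygen sensing genes were alike in the 3 lines except for Egln3. Hif1a, which encodes the alpha subunit of HIF-1, stood at 12.4 FPKM in YUMM1.1, 16.2 in YUMM2.1 and 13.1 in YUMM1.7. Epas1, which encodes the HIF-2 alpha subunit, stayed under the filter at 0.255, 0.355 and 0.573 FPKM, so that Hif1a held 98.0%, 97.9% and 95.8% of the pair. The HIF protein is set mainly by degradation, which these RNA values do not show. Egln1, which encodes the main HIF prolyl hydroxylase PHD2, stood at 14.4, 9.29 and 10.3 FPKM. Differences in Hif1a and Egln1 stayed below 2-fold.

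Egln3, which encodes the prolyl hydroxylase PHD3 and is itself known as a HIF target, stood at 0.113 FPKM in YUMM1.1, 0.0619 in YUMM2.1 and 26.3 in YUMM1.7. This was the largest difference among the 40 genes, 233-fold against YUMM1.1 and 425-fold against YUMM2.1 in FPKM. The low values rest on about 20.7 fragments in YUMM1.1 (95% Poisson interval 13.0 to 32.1) and 14.4 in YUMM2.1 (7.65 to 23.5), and the high value on about 3220 (3113 to 3336), counting error only. In YUMM1.7, Egln3 exceeded Egln1 and fell below Egln2, the third hydroxylase gene, which stood at 27.4, 23.7 and 34.7 FPKM and held 65.3%, 71.7% and 48.7% of the family.

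Of the other response genes, Ankrd37, an ankyrin repeat gene known as a HIF target, followed the same order as Slc2a1. Its level was 3.03 FPKM in YUMM1.1, 2.43 in YUMM2.1 and 9.65 in YUMM1.7, a 3.19-fold and a 3.96-fold excess in YUMM1.7. Ankrd37 is a short transcript, and when each difference was centred on its length class, it no longer passed the 2-fold rule against either line. Its exons overlap those of Ufsp2 on the opposite strand by 57 bases, and Ufsp2 stood at 11.8, 6.81 and 11.7 FPKM. Slc2a1, Egln3 and Ankrd37 were the 3 of 40 genes, or 8.57% of the 35 that passed the filter, that were 2-fold higher in YUMM1.7 than in both other lines, beside 10.5% of all expressed symbols.

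Other genes were lowest in YUMM1.7. P4ha1, which encodes a subunit of the collagen prolyl hydroxylase, stood at 32.4 FPKM in YUMM1.1, 47.4 in YUMM2.1 and 12.8 in YUMM1.7. Ndrg1, a stress-responsive gene widely used as a hypoxia marker, stood at 9.62, 13.8 and 1.19 FPKM, 8.09-fold below YUMM1.1 and 11.6-fold below YUMM2.1 in YUMM1.7. With Ldhb, Pfkfb3 and Pfkfb4 these made 5 of 40 genes, or 14.3% of the 35 that passed the filter, that were 2-fold lower in YUMM1.7 than in both other lines, where 5.85% of all expressed symbols were. With a pseudocount of 5 these counts were 2 higher and 3 lower, beside 6.57% and 2.33% of all expressed symbols. With a common sum they were 1 and 13, beside 3.07% and 23.6%. Kdm3a, which encodes a histone demethylase, had the same order at 7.59, 10.7 and 4.34 FPKM and passed the 2-fold rule against YUMM2.1 alone. Genes known as HIF targets thus lay at both ends in YUMM1.7, with Egln3 at 26.3 FPKM beside Ndrg1 at 1.19 FPKM.

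The promoters of 2 genes from each end are shown, since these genes carry the opposite orders of the lines; they were picked after their values were seen. Each is the window from 250 bases before to 50 bases after the annotated start, on the gene's own strand, from RefSeq on GRCm38.p6. Egln3 lies at chr12:54203825-54204124 on the minus strand, Ankrd37 at chr8:45999801-46000100 on the minus strand, P4ha1 at chr10:59323046-59323345 on the plus strand and Pfkfb4 at chr9:108991652-108991951 on the plus strand. Capitals mark the core of the HIF binding element, searched as ACGTG and GCGTG on both strands.
Egln3: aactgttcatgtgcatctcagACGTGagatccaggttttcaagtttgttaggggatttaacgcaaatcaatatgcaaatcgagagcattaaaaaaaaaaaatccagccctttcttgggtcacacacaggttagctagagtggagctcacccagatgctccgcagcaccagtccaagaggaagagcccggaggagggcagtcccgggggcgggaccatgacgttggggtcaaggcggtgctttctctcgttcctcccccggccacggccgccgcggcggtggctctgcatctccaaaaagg
Ankrd37: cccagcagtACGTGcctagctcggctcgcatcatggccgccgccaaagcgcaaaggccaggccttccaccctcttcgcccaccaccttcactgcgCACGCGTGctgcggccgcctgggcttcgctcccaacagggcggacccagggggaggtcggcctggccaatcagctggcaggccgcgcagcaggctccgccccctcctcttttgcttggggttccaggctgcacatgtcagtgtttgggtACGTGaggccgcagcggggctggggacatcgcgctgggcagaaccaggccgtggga
P4ha1: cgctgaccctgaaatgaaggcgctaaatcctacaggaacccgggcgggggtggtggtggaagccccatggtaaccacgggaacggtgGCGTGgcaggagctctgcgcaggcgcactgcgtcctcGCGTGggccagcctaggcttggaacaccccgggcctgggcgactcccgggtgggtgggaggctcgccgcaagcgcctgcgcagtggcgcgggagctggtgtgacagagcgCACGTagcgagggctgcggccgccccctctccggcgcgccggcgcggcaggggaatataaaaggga
Pfkfb4: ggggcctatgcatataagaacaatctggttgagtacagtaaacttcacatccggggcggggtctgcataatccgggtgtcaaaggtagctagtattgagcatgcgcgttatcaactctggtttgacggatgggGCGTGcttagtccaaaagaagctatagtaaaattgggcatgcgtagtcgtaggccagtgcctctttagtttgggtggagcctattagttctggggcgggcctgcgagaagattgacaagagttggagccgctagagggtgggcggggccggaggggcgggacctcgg

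The core occurred 1 time in the Egln3 window, 4 times in Ankrd37, of which 2 overlap, 3 times in P4ha1 and 1 time in Pfkfb4, so it was present at both ends. Of the 40 genes, 37 had a window in the table, and in the first window listed for each gene the core was found in 29, or 78.4%. Ldha held 7 cores and Bnip3 and Slc16a1 5 each, while Aldoa, Car12, Eno2, Gpi1, Hk1, Pkm, Tpi1 and Vegfa held 0. Over all 27025 genes the core was found in 43.8% of first windows. The windows of the set were richer in G and C, with a median of 64.7% against 52.7%, and a core that holds CG is more frequent in such sequence. The core also lies inside the E-box CACGTG bound by other factors, which 13.5% of the set's windows and 7.24% of all windows held. A match of 5 letters is a description of the sequence and not a binding site.

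YUMM2.1 had 4 of the 40 genes, or 11.4% of the 35 that passed the filter, at 2-fold or more above both other lines, where 3.13% of all expressed symbols were. These were Slc2a3, which passed the filter through this line alone, Slc16a1, Hk2 and Ero1l. With a pseudocount of 5 the count was 0, beside 0.928% of all expressed symbols. Centred on length classes it was 3, without Hk2, beside 3.44%. Ero1l, which encodes the oxidase that drives disulfide formation in the endoplasmic reticulum, stood at 6.78 FPKM in YUMM1.1, 17.3 in YUMM2.1 and 6.58 in YUMM1.7. The lysyl hydroxylase gene Plod2, another reported HIF target and no member, was likewise highest in YUMM2.1, at 5.88, 17.8 and 5.99 FPKM. The leukocyte marker genes also summed highest in this line, 30.1 FPKM, of which the macrophage gene Lyz2 made 25.9, while Ptprc, the defining leukocyte gene, stood at 0.00217 FPKM; their part in these differences was not tested.

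A pair of response genes was similar in YUMM2.1 and YUMM1.7. Bnip3, a mitophagy receptor, stood at 32.5 FPKM in YUMM1.1, 62.8 in YUMM2.1 and 66.3 in YUMM1.7, 1.93-fold and 2.04-fold above YUMM1.1. Adm, which encodes the vasodilator peptide adrenomedullin, was listed at 0 in YUMM1.1 and stood at 1.93 and 2.07 FPKM in the other lines. Adm counts among the higher genes of both comparisons with YUMM1.1 on the FPKM + 1 scale through that 0 alone, which may not be a level, and no fold is given.

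The remaining response genes were close or low. Vegfa, the vascular growth factor, stood at 6.25, 4.12 and 5.49 FPKM, and Ddit4, an inhibitor of mTOR signaling, at 15.2, 12.7 and 10.4 FPKM in YUMM1.1, YUMM2.1 and YUMM1.7. Both stayed within 2-fold. The carbonic anhydrase genes, whose surface enzymes help to buffer acid outside the cell, were hardly detected. Car9, a standard hypoxia marker, was listed at 0 in both other lines but stood at 0.246 FPKM in YUMM1.7, on about 22.9 fragments (95% Poisson interval 14.6 to 34.5). Car12 stood at 0.00397, 0.0218 and 0.0411 FPKM, at most about 7 fragments in a library.

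**Figure D3:**
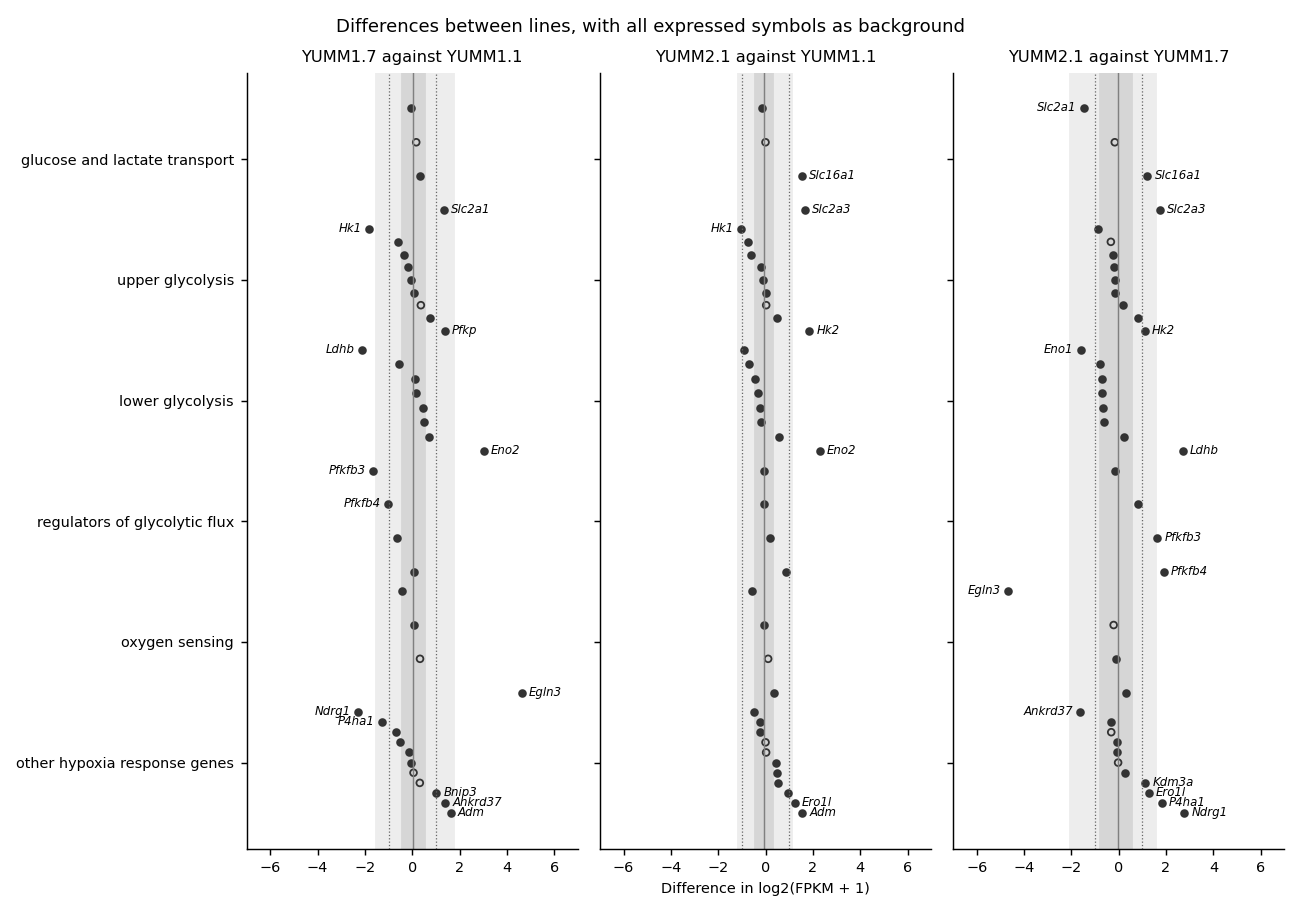
Each panel is 1 comparison and each point 1 gene at its difference in log2(FPKM + 1), positive where the line named first is higher; open points did not pass the filter, dotted lines mark 2-fold, and gray bands hold the middle 50% and 90% of all expressed symbols. Egln3 lies farthest out, at 4.62 in YUMM1.7 against YUMM1.1 and -4.68 in YUMM2.1 against YUMM1.7, and Ndrg1 and Ldhb lie on the opposite side.

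Genes of the same pathways outside the set were read from fixed lists. Among 9 expressed hypoxia factors and regulators, in YUMM1.7 against YUMM1.1 there were 0 higher and 1 lower, YUMM2.1 against YUMM1.1 had none past the rule, and YUMM2.1 against YUMM1.7 had 1 higher. A single gene is 11.1% of that list. Of all expressed symbols, 13.5% were higher and 9.91% lower, 6.21% and 7.64%, and 11.7% and 19.5%, in the same order of comparisons. The gene that differed was Arnt2, which encodes a partner subunit of HIF alpha in neural cells, at 4.55 FPKM in YUMM1.1, 4.56 in YUMM2.1 and 1.04 in YUMM1.7. Arnt, the general partner subunit, stood at 8.95, 8.30 and 4.95 FPKM, within 2-fold by the rule used. Cited2, which competes with HIF for a coactivator, stood at 11.4, 18.7 and 18.5 FPKM, and Hsp90ab1, a chaperone of HIF alpha, at 737, 445 and 590.3 FPKM.

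Of 29 expressed genes among other reported HIF targets, in YUMM1.7 against YUMM1.1 there were 6 higher and 2 lower. In YUMM2.1 against YUMM1.1 there were 4 and 1, and in YUMM2.1 against YUMM1.7 there were 5 and 6. As shares these were 20.7% higher and 6.90% lower, 13.8% and 3.45%, and 17.2% and 20.7%, beside 13.5% and 9.91%, 6.21% and 7.64%, and 11.7% and 19.5% of all expressed symbols. Among the genes counted, Cxcr4 and Zfp395 passed the filter through YUMM1.7 alone, and Pdgfb and Rora through YUMM2.1 alone. With a pseudocount of 5 the counts of the 29 were 1 and 0, 2 and 0, and 4 and 4. The shares of all expressed symbols then were 7.94% and 4.62%, 1.81% and 3.87%, and 4.43% and 12.9%. The lipid droplet gene Hilpda, listed under its older symbol 2310016C08Rik, joined Egln3 and Ankrd37 in order, at 29.8 FPKM in YUMM1.1, 16.0 in YUMM2.1 and 111 in YUMM1.7. The chemokine receptor gene Cxcr4 stood at 4.31 FPKM in YUMM1.7 and was listed at 0 in both other lines. Bhlhe40, a transcriptional repressor, lay on the other side at 11.4, 23.7 and 4.001 FPKM, and the growth factor gene Pdgfb was high in YUMM2.1 alone at 0.0305, 8.37 and 0.0376 FPKM.

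The other isozymes and transporters were few in number, with 11 of 28 expressed. Against YUMM1.1, YUMM1.7 had Eno3 higher and Pdk2, a further pyruvate dehydrogenase kinase gene, lower, the latter at 2.50 FPKM in YUMM1.1, 1.76 in YUMM2.1 and 0.580 in YUMM1.7. Slc2a8, an intracellular glucose transporter, stood at 3.59, 4.63 and 1.55 FPKM. Eno3 was the 1 gene past the rule, higher, in YUMM2.1 against YUMM1.1, and against YUMM1.7 Slc2a8 was higher and Eno3 lower in YUMM2.1. A single gene is 9.09% of the 11. Of all expressed symbols, 13.5% were higher and 9.91% lower in YUMM1.7 against YUMM1.1. In YUMM2.1 the shares were 6.21% and 7.64% against YUMM1.1, and 11.7% and 19.5% against YUMM1.7. Of 12 expressed genes that take pyruvate into mitochondria or back to glucose, 0 passed 2-fold in either comparison with YUMM1.1, beside the same shares. Among them the pyruvate carrier gene Mpc1, listed as Brp44l, stood at 67.3, 114 and 64.8 FPKM, Pdha1 of pyruvate dehydrogenase at 56.5, 54.3 and 31.7 FPKM, and Dld, a shared subunit of the dehydrogenase, at 36.0, 50.5 and 22.0 FPKM. Pck2, the mitochondrial enzyme that makes phosphoenolpyruvate, stood at 7.60, 4.37 and 10.8 FPKM. Against YUMM1.7, Dld was the 1 gene higher and Pck2 the 1 gene lower in YUMM2.1, each 8.33% of the 12. The median difference of these 12 genes in that comparison was 0.45, beside -0.02 for all expressed symbols.

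Many genes of the pathways that branch off glycolysis were lowest in YUMM2.1 as deposited. The pentose phosphate pathway draws on glucose 6-phosphate to make NADPH and ribose, and serine synthesis draws on phosphoglycerate. Of 14 expressed genes on that list, YUMM2.1 against YUMM1.1 had 8 lower, 57.1%, and 1 higher, beside 7.64% and 6.21% of all expressed symbols, with a median difference of -1.06 beside -0.05 for all expressed symbols. Against YUMM1.7, 7 were lower and 2 higher in YUMM2.1, beside 19.5% and 11.7%, with a median of -1.13 beside -0.02. G6pdx, the enzyme of entry, stood at 35.9 FPKM in YUMM1.1, 11.4 in YUMM2.1 and 34.6 in YUMM1.7. Pgls, the lactonase that follows it, stood at 137, 62.9 and 231 FPKM, and Pgd, the next oxidative enzyme, at 93.7, 29.9 and 125 FPKM. Phgdh, which opens serine synthesis, stood at 185, 88.7 and 366 FPKM. For all 4, YUMM2.1 was the low line by 2-fold or more. YUMM1.7 and YUMM1.1 were closer, with 0 of 14 higher in YUMM1.7 and 1 lower, which was Gpd1l at 6.13, 5.84 and 1.99 FPKM. The gene higher in YUMM2.1 against YUMM1.1 was Rpe, an enzyme of the nonoxidative steps, at 14.3, 30.1 and 10.9 FPKM, and Rpe and Gpd1l were the 2 higher against YUMM1.7. Rpe, Gpd1l, Bsg, Pfkfb1, Egln2, Plod2, Car2, Zfp395 and Rora were named after their values were seen. Centred on length classes, 5 of 14 were lower against YUMM1.1 (median -0.81) and 6 against YUMM1.7 (median -0.86). Rescaled to a common upper quartile, 2 of 14 were lower in the comparison of YUMM2.1 with YUMM1.1 (median -0.87), and rescaled to a common sum, 2 were (median -0.48, where the median of all expressed symbols was 0.44). Against YUMM1.7 that sum scaling gave 0 lower and 5 higher, with a median of 0.25 where that of all symbols was 1.09.

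**Figure D4:**
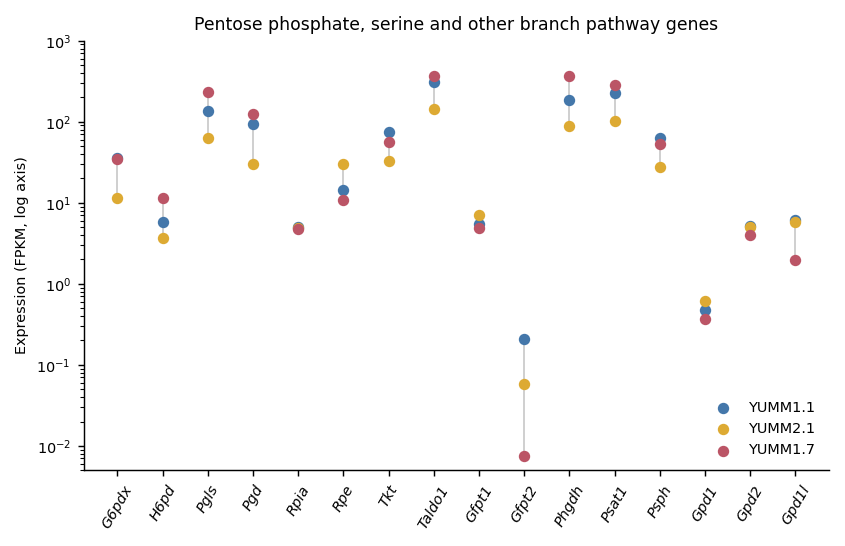
Points give the FPKM of each gene of the pentose phosphate, serine and other branch pathways in the 3 lines on a log axis. YUMM2.1 lies lowest for G6pdx (11.4 FPKM), Pgls (62.9 FPKM), Pgd (29.9 FPKM) and Phgdh (88.7 FPKM) and highest for Rpe (30.1 FPKM).

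Several acid handling genes outside the set differed between lines. Car6, which encodes a secreted carbonic anhydrase, stood at 13.3 FPKM in YUMM1.1, 19.9 in YUMM2.1 and 0.0528 in YUMM1.7, and Car5b, a mitochondrial form, at 14.3, 6.25 and 1.26 FPKM. Slc4a7, a bicarbonate transporter, stood at 3.19, 7.29 and 2.92 FPKM. Of the 8 expressed genes on that list, in YUMM1.7 against YUMM1.1 there were 0 higher and 2 lower, Car5b and Car6. As shares these were 0% and 25%, beside 13.5% and 9.91% of all expressed symbols. YUMM2.1 against YUMM1.1 had 1 lower, Car5b, or 12.5%, beside 7.64%. In YUMM2.1 against YUMM1.7, 4 were higher, or 50%, beside 11.7%, and the lower count is not reported here. Among the 4 was Car2, at 0.00878, 1.01 and 0 FPKM. It passed the filter through YUMM2.1 alone, and its 0 in YUMM1.7 may not be a level. With a pseudocount of 5, 1 of the 8 was higher, beside 4.43% of all expressed symbols.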

How the data were processed

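RNA of 3 cell lines was sequenced as 1 library each. The submitters' processing notes list TopHat2 2.0.9, Cufflinks and Cuffnorm. Other versions, the genome build, the annotation and strandedness are not given in the labels or the file. The authors deposited FPKM per gene symbol, used here without rescaling. The members and lists were chosen with earlier results of these data known.

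Symbols with at least 1 FPKM in at least 1 line were compared as log2(FPKM + 1), and a difference of 1 (2-fold) was counted. Folds are ratios of FPKM. With 1 library per line no test was run. All 40 genes are named, and from each fixed list up to 4 with the largest difference in any comparison; 1 listed HIF target had no row under a symbol that matched it. The 1 absent member of the leukocyte list and the 1 of the erythroid list were likewise not matched. A named gene of the acid handling list is not reported here.

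The implied depth was read from the spacing of low FPKM values times length over 903 single-transcript genes, each 3000 nt or longer. Of low values, 79.0% in YUMM1.1, 82.3% in YUMM2.1 and 77.9% in YUMM1.7 lay within 0.2 of a whole multiple. On simulated counts the depth was recovered within 0.05%. The simulation used the same transcript lengths throughout, so it does not cover errors of length or scaling in the deposited FPKM. Fragment intervals cover counting error only. Lengths came from GENCODE M21 (longest transcript; 95.3% of expressed symbols and all 40 members matched) and promoters from RefSeq. Alternatives were other pseudocounts, filters, scalings and centring by length class. Python 3.11.15, numpy 2.4.6, pandas 2.3.3, scipy 1.17.1 and matplotlib 3.10.9 were used.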

Additional observations from a re-analysis of the deposited data

How the results depend on the processing

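With a pseudocount of 5, the counts of higher and lower genes were 3 and 4 in YUMM1.7 against YUMM1.1, 1 and 0 in YUMM2.1 against YUMM1.1, and 3 and 3 in YUMM2.1 against YUMM1.7. The shares of all expressed symbols then were 7.94% and 4.62%, 1.81% and 3.87%, and 4.43% and 12.9%. Rescaling to a common sum moved the median of all expressed symbols to -0.60, 0.44 and 1.09 in the same order, and the counts became 3 and 13, 11 and 0, and 23 and 1. The lower count of YUMM2.1 against YUMM1.1 was Hk1 alone and became 0 with a common upper quartile and with the median ratio. Under the sum scaling 7 genes changed direction in YUMM2.1 against YUMM1.7 and passed the rule only after it: Pfkl (1.06), Pfkm (1.05), Aldoa (1.20), Tpi1 (1.24), Pdk3 (1.1), Egln1 (1.13) and Bnip3 (1.3). Further genes changed sign there without passing the rule, such as Gapdh (-0.62 to 0.77) and Ldha (-0.68 to 0.72). No other alternative turned the direction of a difference that passed the rule before or after the change. A pseudocount of 0.1, no filter and a filter at 5 FPKM kept each count within 1.5 times, as did centring by length class, where 11 of 105 member differences crossed the 2-fold rule; the median of the set then moved to -0.09, 0.15 and 0.60.

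With isozymes outside the set in the denominator, Slc2a1 held 71.5%, 53.0% and 93.6% in YUMM1.1, YUMM2.1 and YUMM1.7, Slc16a1 93.1% in YUMM1.1, Pfkfb3 35.4%, 21.2% and 6.32%, Pdk3 60.9% for YUMM1.1 with 59.1% for YUMM2.1, and Egln1 34.4%, 28.1% and 14.5%. Depth limits Car12, Slc2a3 and Slc16a3, which rest on few fragments in at least 1 line; the values of Adm and Car9 listed at 0 may not be levels. No paired analysis was possible because each line is 1 library.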
